A study of Mus musculus with 42 samples.

Results

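Aminoacyl-tRNA synthetases are the enzymes that join each amino acid to its transfer RNA. Transcripts of 34 of their genes were followed in conventional CD4+ T cells (Tconv) and regulatory T cells (Treg) of NOD mice given the anti-CD3 antibody KT3. The members were chosen with earlier results of these data known, by a rule on the gene symbol. The rule took every gene whose symbol is a letter followed by "ars", with or without a final 1 or 2, and Eprs, Farsa and Farsb. Each needed a transcript cluster that names no other gene. Of 19752 genes on the array, 34 met this rule, 18 cytosolic enzymes (Cars, Eprs, Farsa, Farsb, Gars, Hars, Iars, Kars, Lars, Mars1, Nars, Qars, Rars, Sars, Tars, Vars, Wars and Yars) and 16 mitochondrial enzymes, whose symbols end in 2 (Aars2, Cars2, Ears2, Fars2, Hars2, Iars2, Lars2, Mars2, Nars2, Pars2, Rars2, Sars2, Tars2, Vars2, Wars2 and Yars2). The cytosolic alanine enzyme, whose cluster is shared with Exosc6, and both aspartate enzymes were not analysed here. Only Iars had more than 1 cluster, and the brighter of its 2 was used.

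All mice carried a Foxp3-IRES-GFP reporter, in which green fluorescent protein (GFP) marks cells that express Foxp3, the lineage factor of regulatory T cells, and all cells were CD4+ spleen cells sorted by flow cytometry after removal of B220+, CD8a+, CD11b+ and CD11c+ cells. In vivo, GFP+ Treg and GFP- Tconv came from 8-week-old females injected intravenously with KT3 and taken 2, 8, 24 or 72 h later, or from untreated females (0 h). A control group received rat IgG and was taken at 24 h, with 1 array per cell type. In vitro, splenocytes were cultured with 1.25 µg/ml KT3 for 0, 2, 8, 24 or 72 h before the sort, the arrays numbered 1 coming from 9-week-old females and those numbered 2 from 14-week-old males, so that sex, age and array number cannot be told apart there. Every group apart from rat IgG had 2 arrays, 42 arrays in 22 groups in all. The labels do not say that the arrays of a group came from separate mice, so the p-values below measure the spread between arrays, which may be technical.

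A synthetase activates its amino acid with ATP and then loads it onto the matching transfer RNA, and the ribosome cannot use a codon whose transfer RNA is uncharged. Cytosolic and mitochondrial protein synthesis use largely separate sets of these enzymes, all encoded in the nucleus. Eprs charges both glutamate and proline, Farsa and Farsb are the subunits of the phenylalanine enzyme, and Gars and Kars each encode the enzyme of both compartments. A T cell stimulated through CD3 leaves its resting state, grows and begins to make large amounts of protein.

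The labelled cell types matched their defining markers. Cd3e and Cd4 read above 10.4 (log2 intensity) on all 42 arrays, and Foxp3 read 11.30 to 12.34 on the 21 Treg arrays and 7.02 to 8.20 on the 21 Tconv arrays, although the labels describe the in vitro sort of both cell types as GFP negative. All 34 members passed the filter on dim genes, which left 12425 genes to test. Most mitochondrial members were dimmer than the cytosolic ones. Their medians over the arrays ran from 6.67 (Ears2) to 8.76 (Tars2), and those of cytosolic members from 8.09 (Tars) to 10.12 (Sars). The arrays themselves had medians of 6.45 to 6.86. The part of this dimness in the smaller changes of the mitochondrial members was not tested. In Tconv in vitro at 0 h, array 1 stood apart: its mean correlation with the other arrays was 0.78 and its values covered a narrower range than those of any other array (interquartile range 1.59 on the log2 scale). Results that rest on it are given with and without it. Markers of 9 other cell types (35 of 41 named genes present, none at 0) averaged between 6.38 and 7.19 on the in vivo Treg arrays numbered 1 and between 5.67 and 5.86 on those numbered 2. For in vivo Tconv arrays, the ranges were 6.40 to 6.78 and 5.65 to 5.82, and for in vitro arrays 5.90 to 6.39 over both cell types and numbers. Of the in vivo arrays, 9 of 10 numbered 1 were labelled as single sorted and 10 of 12 numbered 2 as double sorted.

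Start sites are shown for Gars, Iars, Tars and Yars, because these 4 enzymes rose after KT3 and are the members whose promoter windows hold the letters TGATGNAA, the core of the element bound by ATF4, a transcription factor of the response to amino acid shortage. The stretches run from 110 bases before to 30 bases after the start site in RefSeq (GRCm38.p6), 5′ to 3′ on the gene's strand. They lie at chr6:55037891-55038030 on the plus strand for Gars, chr13:49682020-49682159 on the plus strand for Iars, chr15:11399629-11399768 on the minus strand for Tars and chr4:129189793-129189932 on the plus strand for Yars. The Yars gene as listed in RefSeq begins at 129189734, upstream of its stretch, so the start site used for Yars is a later one. Capitals mark TGATGNAA or its reverse complement, and CACGTG, the E-box letters bound by Myc and related factors.
Gars: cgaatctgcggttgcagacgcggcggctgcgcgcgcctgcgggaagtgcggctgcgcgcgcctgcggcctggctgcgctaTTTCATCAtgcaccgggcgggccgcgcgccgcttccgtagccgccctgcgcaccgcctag
Iars: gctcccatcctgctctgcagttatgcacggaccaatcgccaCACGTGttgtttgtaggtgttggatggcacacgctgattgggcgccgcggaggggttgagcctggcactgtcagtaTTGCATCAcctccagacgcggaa
Tars: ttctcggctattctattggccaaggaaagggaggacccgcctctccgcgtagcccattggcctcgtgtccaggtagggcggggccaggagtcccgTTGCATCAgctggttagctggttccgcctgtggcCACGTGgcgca
Yars: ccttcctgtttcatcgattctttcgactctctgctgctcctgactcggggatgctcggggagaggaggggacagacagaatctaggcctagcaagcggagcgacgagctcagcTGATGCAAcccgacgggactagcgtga
The TGATGNAA match lay 30 bases before the start site in Gars (position -30), at -15 in Tars, at 8 in Iars and at 4 in Yars, on the gene's own strand only in Yars. CACGTG lay at -69 in Iars and at 20 in Tars, and also at -39 in Farsb and at 22 in Ears2. RefSeq windows of 300 bases were at hand for 25 of the 34 members (not for Cars, Hars, Hars2, Lars, Nars, Pars2, Rars, Vars and Wars). Members were counted by gene and the background by window. On either strand, TGATGNAA was found for 4 of 11 cytosolic and 0 of 14 mitochondrial genes with a window. The background was 3.97% of all 32851 windows and 2.14% of the 12457 windows of tested genes. CACGTG was found for 3 of 11 cytosolic and 1 of 14 mitochondrial genes, against 7.15% of all windows and 9.88% of those of tested genes. No match to either set of letters overlapped a match to the other. A match is a description of the sequence and not a binding site.

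In Treg in vivo, nearly all cytosolic synthetases were higher 8 h after KT3 than before it, and none was called at 24 h. Tars, the threonine enzyme, read 8.19 and 7.98 at 0 h, 9.50 and 9.23 at 2 h, 9.62 and 9.13 at 8 h, 8.28 and 8.14 at 24 h and 8.03 and 7.99 at 72 h (log2 intensity, arrays 1 and 2). Iars, the isoleucine enzyme, read 9.01 and 8.37 at 0 h, 10.29 and 9.81 at 2 h, 10.42 and 9.85 at 8 h, 9.08 and 8.79 at 24 h and 8.92 and 8.64 at 72 h. For both genes the 2 h and 8 h arrays lay above both 0 h arrays, and the 24 h and 72 h arrays lay within or close to the range of the 0 h arrays. Relative to 0 h, Tars was 1.29 ± 0.23 higher at 8 h on the log2 scale (± SE of the fit, 2 arrays per group; adjusted p = 0.000666, limma with Benjamini-Hochberg adjustment over all genes tested).

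In Treg in vivo at 8 h, 15 of 18 cytosolic and 1 of 16 mitochondrial synthetases were called higher than at 0 h (adjusted p under 0.05), against 6.36% of all genes, with a cytosolic median of 1.12, a mitochondrial median of 0.18 and a median of all genes of -0.02. The largest differences were those of Rars, the arginine enzyme (1.53 ± 0.33, adjusted p = 0.00352), Iars (1.45 ± 0.34, 0.00687), Tars, given above, Mars1, the methionine enzyme (1.26 ± 0.26, 0.002), Vars, the valine enzyme (1.26 ± 0.24, 0.00135) and Nars, the asparagine enzyme (1.21 ± 0.36, 0.0323). Hars (histidine), Qars (glutamine) and Sars (serine) did not pass. For 16 of 18 cytosolic members, both 8 h arrays were above both 0 h arrays, as for 27.8% of all genes. Leaving out an array of the 2 groups left between 4 and 9 cytosolic calls: 8 without 0 h array 1, 4 without 0 h array 2, 4 without 8 h array 1 and 9 without 8 h array 2. Cars, the cysteine enzyme, Mars1, Tars and Vars passed in each of these cases. Other-cell markers averaged 7.11 at 8 h and 6.38 at 0 h on the Treg arrays numbered 1, and 5.85 and 5.81 on those numbered 2, and their part in the result was not tested. The cytosolic median rise at 8 h was 1.10 within the arrays numbered 1 and 1.04 within those numbered 2. In sorted populations such as these, fewer responding cells and less RNA per cell cannot be told apart.

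At 2 h in Treg in vivo, 5 cytosolic and 2 mitochondrial synthetases passed, against 5.04% of all genes. Rars was 1.48 ± 0.33 higher than at 0 h (adjusted p = 0.00522), Iars 1.36 ± 0.34 (0.0119), Tars 1.28 ± 0.23 (0.000625), Farsb 1.05 ± 0.28 (0.0206) and Vars 0.99 ± 0.24 (0.0109), and the mitochondrial Yars2 and Ears2 were 1.13 ± 0.31 (0.0262) and 0.58 ± 0.16 (0.0233) higher. Ears2 was dim: it read 6.63 and 6.50 at 0 h, close to the medians of those arrays, 6.54 and 6.63. Without array 1 of the 2 h group, or without array 2 of the 0 h group, 1 cytosolic call was left, with 1 and 0 mitochondrial calls, and without the outlying in vitro array in the shared fit there were 11 and 4. From 2 to 8 h no synthetase passed in Treg, against 0.233% of all genes called higher. By limma, 3 cytosolic and 3 mitochondrial members had an unadjusted p under 0.05. The 3 cytosolic ones and 1 mitochondrial one rose, and 2 mitochondrial ones fell.

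Tconv in vivo also had higher transcripts of nearly all cytosolic synthetases 8 h after KT3, and none was called at 24 h. Tars in Tconv read 7.50 and 7.91 before KT3, 9.08 and 8.98 at 2 h, 9.63 and 9.61 at 8 h, 7.62 and 7.95 at 24 h and 7.69 and 8.00 at 72 h. Both 2 h arrays and both 8 h arrays were above both 0 h arrays, while array 1 at 24 h and at 72 h lay between the 0 h arrays and array 2 of both times lay slightly above them. Relative to 0 h, Tars was 1.91 ± 0.23 higher at 8 h on the log2 scale, a 3.76-fold rise (adjusted p = 2.38e-06). Vars read 8.50 and 8.27 at 0 h, 9.26 and 8.86 at 2 h, 10.21 and 10.15 at 8 h, 8.57 and 8.21 at 24 h and 7.77 and 7.79 at 72 h. It was highest at 8 h on both arrays and lowest at 72 h.

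At 8 h in Tconv in vivo, 16 of 18 cytosolic and 4 of 16 mitochondrial synthetases were called higher than at 0 h, against 14.4% of all genes tested. The median difference of the cytosolic members was 1.55, with a range of 0.66 to 1.91, that of the mitochondrial members 0.37, and that of all genes -0.06. On both 8 h arrays all 18 cytosolic members were above both 0 h arrays, which was so for 32.5% of all genes. After Tars, the largest rises were those of Vars (1.80 ± 0.24, adjusted p = 9.68e-06), Cars (1.77 ± 0.21, 1.8e-06), Mars1 (1.74 ± 0.26, 2.31e-05), Iars (1.73 ± 0.34, 0.000543), and Kars, the lysine enzyme (1.65 ± 0.26, 5.89e-05). Qars and Sars, at 0.80 and 0.66, did not pass the test. Leaving out array 2 of the 0 h group ended the calls of Hars and Wars. Other-cell markers averaged 6.40 at 8 h and 6.45 at 0 h on the arrays numbered 1, and 5.65 and 5.74 on those numbered 2.

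At 2 h in Tconv in vivo, 3 of 18 cytosolic and 0 of 16 mitochondrial synthetases passed, against 3.04% of all genes. They were Tars (1.33 ± 0.23, adjusted p = 0.000699), Rars (1.21 ± 0.33, 0.0391), and Cars (0.89 ± 0.21, 0.0137). The cytosolic median was 0.71, and 14 cytosolic and 2 mitochondrial members had an unadjusted p under 0.05. With the array number as a block, Iars and Kars also passed (5 calls). The cytosolic count was 1 without array 1 of the 2 h group or array 2 of the 0 h group and reached 10 once the outlying in vitro array was left out of the shared fit. From 2 to 8 h, 5 cytosolic and 4 mitochondrial synthetases rose further, against 6.33% of all genes. Mars1 gained 1.24 ± 0.26 (adjusted p = 0.00387), Vars 1.12 ± 0.24 (0.00594), Yars, the tyrosine enzyme, 0.91 ± 0.25 (0.0258), Cars 0.89 ± 0.21 (0.0102) and Kars 0.83 ± 0.26 (0.0486), and Rars2, Sars2, Lars2 and Vars2 gained between 0.55 and 1.22. None of the 9 passed without array 1 of the 8 h group or array 2 of the 2 h group, 4 did without array 2 of the 8 h group, and 16 members did without the outlying in vitro array.

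**Figure D1:**
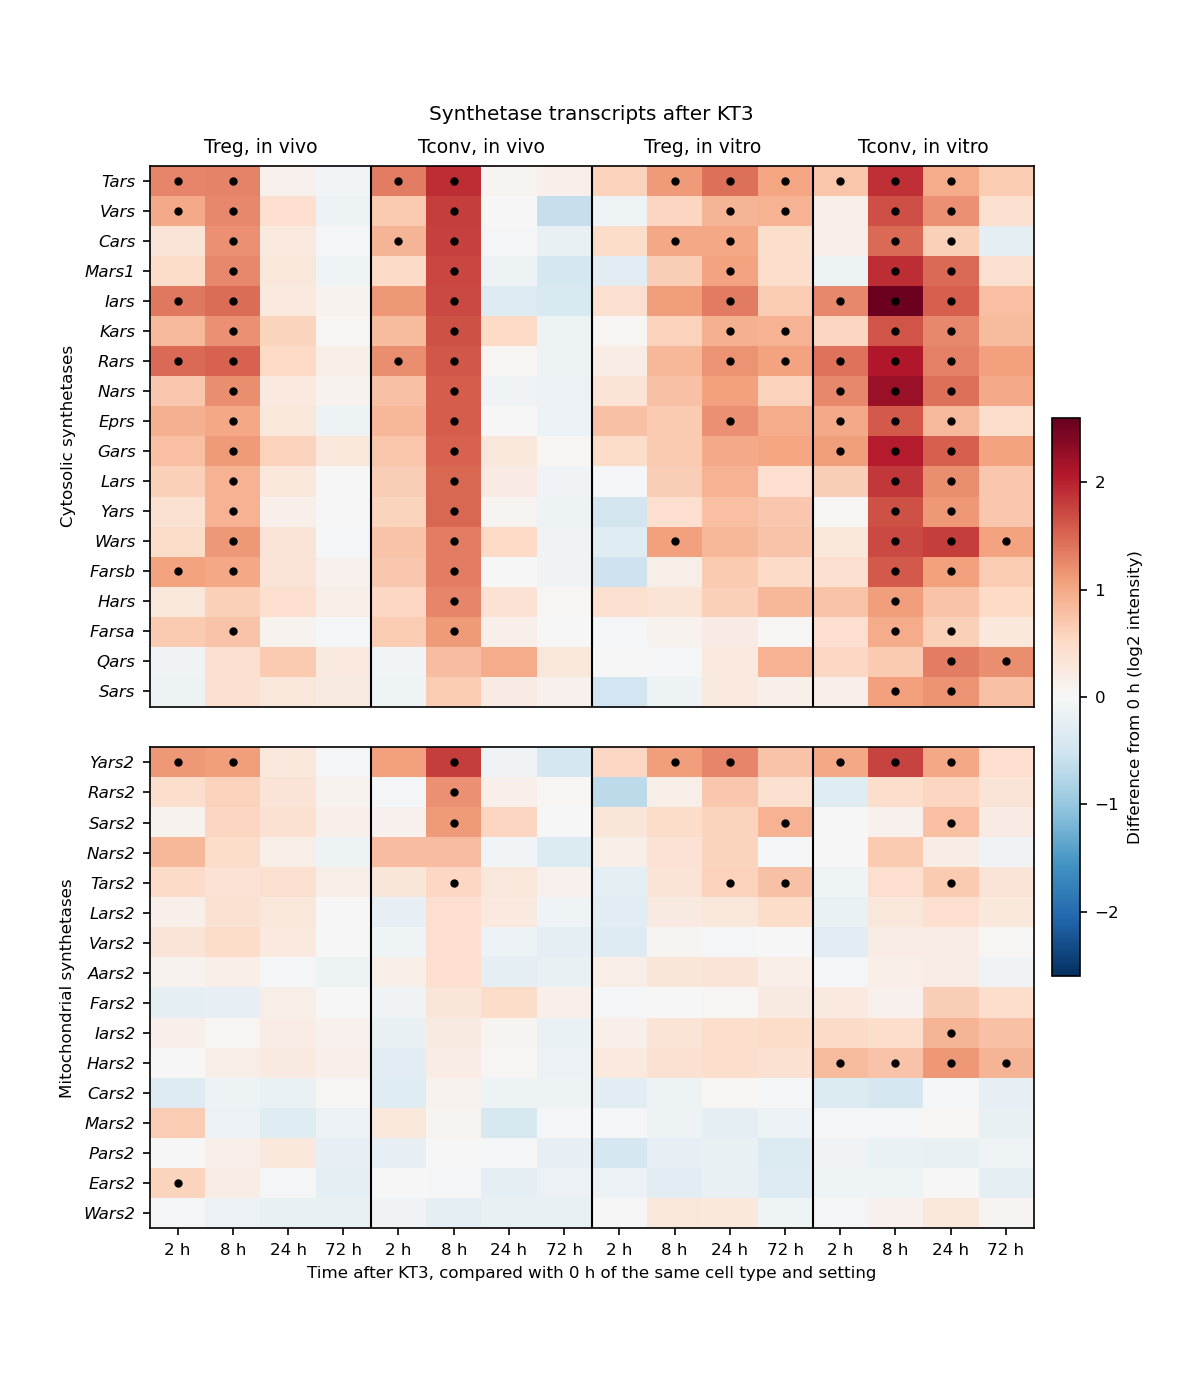
Heat map of the log2 difference from 0 h of each of the 34 synthetases (rows, cytosolic above mitochondrial) at 2, 8, 24 and 72 h after KT3 in Treg in vivo, Tconv in vivo, Treg in vitro and Tconv in vitro, with black dots where a difference passed the test (adjusted p under 0.05). The colour runs from lower to higher than 0 h on a shared log2 scale. Dots fill 15 of 18 cytosolic fields for Treg and 16 of 18 for Tconv at 8 h in vivo. There are none at 24 or 72 h in vivo. In vitro they fill 3 cytosolic fields at 8 h and 8 at 24 h for Treg, and 17 at both times for Tconv. The in vitro Tconv values use the outlying 0 h array. Their cytosolic median at 24 h was 1.81 within arrays numbered 1 and 0.61 within those numbered 2.

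Cars and Mars1 reached their highest values at 8 h rather than at 2 h in both cell types in vivo. Cars, which charges cysteine, read 7.73 and 7.90 at 0 h, 8.10 and 8.20 at 2 h, 9.21 and 8.80 at 8 h, 8.15 and 7.97 at 24 h and 7.82 and 7.76 at 72 h in Treg. In Tconv Cars read 8.07 and 7.59 at 0 h, 8.89 and 8.54 at 2 h, 9.80 and 9.41 at 8 h, 7.86 and 7.68 at 24 h and 7.66 and 7.61 at 72 h. The 8 h arrays stood above all others of the same cell type. Mars1 read 8.48 and 8.51 at 0 h, 9.10 and 8.85 at 2 h, 9.88 and 9.62 at 8 h, 8.94 and 8.66 at 24 h and 8.47 and 8.29 at 72 h in Treg. In Tconv it read 8.99 and 8.54 at 0 h, 9.59 and 8.94 at 2 h, 10.69 and 10.33 at 8 h, 8.79 and 8.47 at 24 h and 8.49 and 8.12 at 72 h. Again both 8 h arrays were the highest, and in Tconv the 72 h arrays were the lowest of their number.

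Vars in Treg in vivo read 7.92 and 7.79 at 0 h, 9.04 and 8.64 at 2 h, 9.19 and 9.03 at 8 h, 8.59 and 8.00 at 24 h and 7.90 and 7.54 at 72 h. Its 2 h and 8 h arrays were above both 0 h arrays, and so were those of 24 h, array 1 by more than array 2. Iars in Tconv in vivo read 9.09 and 9.05 at 0 h, 10.33 and 10.05 at 2 h, 10.78 and 10.81 at 8 h, 8.64 and 8.84 at 24 h and 8.65 and 8.69 at 72 h. Both 2 h and both 8 h arrays were above the 0 h arrays, and the 24 h and 72 h arrays below them.

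Of the synthetases called higher at 8 h, most in Tconv and fewer in Treg were called lower at 24 h than at 8 h. By limma's unadjusted p under 0.05, 14 of 18 cytosolic members in Treg and 16 in Tconv were lower. The cytosolic medians of this step were -0.75 in Treg and -1.38 in Tconv. In Treg, 4 cytosolic synthetases fell between 8 and 24 h, against 2.21% of all genes called lower: Iars by 1.20 ± 0.34 (adjusted p = 0.0384), Tars by 1.17 ± 0.23 (0.00291), Mars1 by 0.96 ± 0.26 (0.0256) and Cars by 0.94 ± 0.21 (0.00724). Without array 1 of the 8 h group no member passed, 1 did without array 2 of the 24 h group, 2 did without either of the other 2 arrays, and 12 did without the outlying in vitro array, and 8 with the array number as a block. In Tconv, 15 cytosolic and 5 mitochondrial synthetases fell over the same interval, against 10.9% of all genes called lower. Iars fell by 2.06 ± 0.34 on the log2 scale (adjusted p = 7.77e-05), Mars1 by 1.88 ± 0.26 (6.77e-06), Cars by 1.83 ± 0.21 (8.07e-07) and Tars by 1.83 ± 0.23 (3.02e-06), while Qars, Sars and Wars did not pass. At 24 h no synthetase was called different from 0 h in either cell type (with the array number as a block, Qars in Tconv was, at 0.96 ± 0.26, adjusted p = 0.0457), against 0.451% of all genes called higher in Treg and 2.27% in Tconv, and at 72 h likewise, against 0.0241% in Treg and 0.266% in Tconv. By limma's unadjusted p under 0.05, 1 cytosolic and 1 mitochondrial member stood out at 24 h in Treg and as many in Tconv, all higher. At 72 h none did in Treg and 1 cytosolic member, lower than at 0 h, did in Tconv. The cytosolic medians at 24 h were 0.30 in Treg and 0.07 in Tconv (-0.02 after quantile normalization), and at 72 h 0.03 in Treg (-0.04 after quantile normalization) and -0.11 in Tconv. At 24 h all 18 cytosolic differences were positive in Treg, where 11 members had both arrays above both 0 h arrays, against 21.7% of all genes, and 12 were positive in Tconv, where 4 did, against 23.3%.

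**Figure D2:**
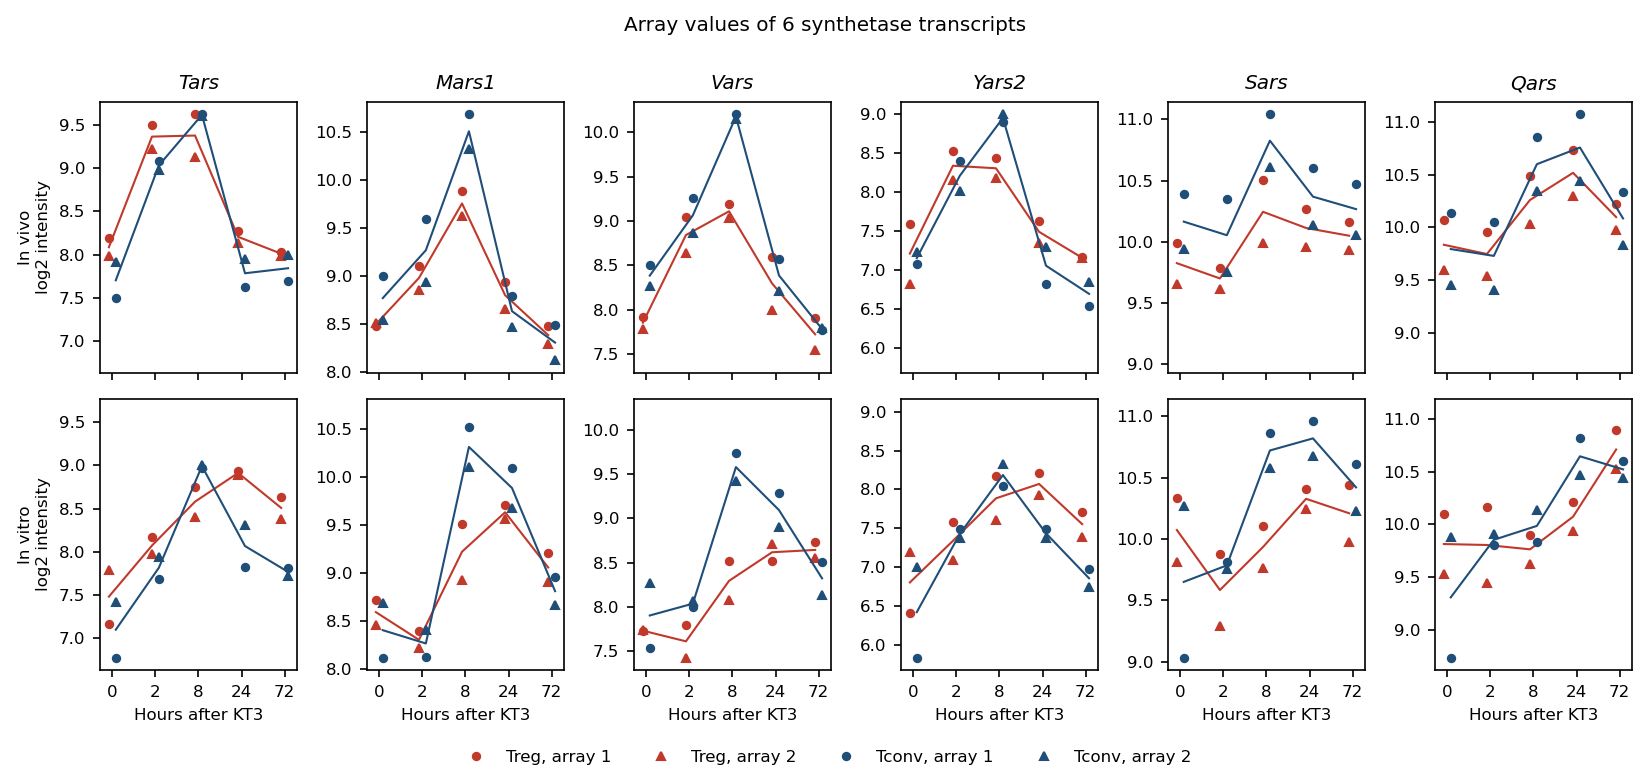
Log2 intensity of selected synthetases on every array against the time after KT3, with a column for each of Tars, Mars1, Vars, Yars2, Sars and Qars, in vivo above and in vitro below. Treg are red and Tconv blue, circles are arrays numbered 1, triangles arrays numbered 2 and lines the mean of the 2. Tars in Tconv in vivo stands at 9.63 and 9.61 at 8 h, above 7.50 and 7.91 at 0 h, and the first in vitro Tconv array at 0 h lies below its partner, for Sars at 9.03 and 10.27.

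In Treg in vitro, fewer synthetases passed the test at 8 h than in vivo, and the count was highest at 24 h. Tars in Treg in vitro read 7.17 and 7.79 at 0 h, 8.17 and 7.98 at 2 h, 8.75 and 8.41 at 8 h, 8.93 and 8.89 at 24 h and 8.63 and 8.39 at 72 h. All arrays from 2 h on were above both 0 h arrays, with the highest at 24 h. At 2 h no synthetase passed, against 4.02% of all genes, with a cytosolic median of 0.02 (-0.18 after quantile normalization). By limma's unadjusted p under 0.05, 3 cytosolic members were higher and 1 mitochondrial member was lower. At 8 h, 3 cytosolic synthetases and the mitochondrial Yars2 passed, against 4.52% of all genes: Tars (1.10 ± 0.23, adjusted p = 0.00403), Wars, the tryptophan enzyme (1.08 ± 0.29, 0.0258) and Cars (1.01 ± 0.21, 0.00375). The cytosolic median was 0.64, and for 14 of 18 cytosolic members both 8 h arrays were above both 0 h arrays, as for 31.7% of all genes. Of the 3 cytosolic calls, 1 was left without 0 h array 1 and 0 without 8 h array 1, both also ending the call of Yars2, and without the outlying Tconv array there were 8.

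At 24 h in Treg in vitro, 8 cytosolic and 2 mitochondrial synthetases passed, against 5.01% of all genes, with a cytosolic median of 0.92. The largest differences were Tars (1.43 ± 0.23, adjusted p = 0.000347), Iars (1.36 ± 0.34, 0.0171), Eprs, of glutamate and proline (1.18 ± 0.31, 0.0239) and Rars (1.17 ± 0.33, 0.0362), and among mitochondrial members Yars2 (1.26, 0.0156) and Tars2 (0.61, 0.0415). Without 0 h array 1 or 24 h array 2 there were 2 cytosolic calls, without 24 h array 1 there was 1, and quantile normalization also left 1. Each of these 3 arrays, left out, ended both mitochondrial calls, and without the outlying Tconv array there were 14 cytosolic calls. At 72 h, 4 cytosolic synthetases were still higher (Rars, Tars, Vars and Kars, between 0.90 and 1.05) and 2 mitochondrial ones (Sars2 and Tars2), against 7.34% of all genes. At 72 h none of the 6 passed without array 1 of either group, 2 cytosolic members did without 72 h array 2, and 11 did without the outlying Tconv array. With the array number, which in vitro goes with sex and age, as a block, Eprs, Gars, Hars, Qars and Wars also passed at 72 h (9 calls). The cytosolic medians within the arrays numbered 1 were 0.81 at 24 h and 0.85 at 72 h, and within those numbered 2 they were 1.00 and 0.53. Between 2 and 8 h, Wars (1.39), Yars (0.92) and Mars1 (0.92) rose, against 2.92% of all genes (1 member without 2 h array 1, 0 without 2 h array 2 or 8 h array 1, and 7 without the outlying Tconv array), and between 8 and 24 h none passed, with 0% of all genes called and no member at an unadjusted p under 0.05 in limma.

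In Tconv in vitro, nearly all cytosolic synthetases were called higher at 8 h and at 24 h. Iars in Tconv in vitro read 6.97 and 8.79 at 0 h, 9.14 and 9.13 at 2 h, 10.50 and 10.36 at 8 h, 9.37 and 9.51 at 24 h and 8.72 and 8.59 at 72 h. Its 0 h arrays differed from each other more than those of any later time, and the 72 h arrays lay between them. Mars1 read 8.12 and 8.69 at 0 h, 8.12 and 8.41 at 2 h, 10.52 and 10.10 at 8 h, 10.10 and 9.67 at 24 h and 8.96 and 8.66 at 72 h. For Mars1 the 2 h arrays were no higher than the 0 h arrays, and the 8 h and 24 h arrays stood above both.

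At 8 h in Tconv in vitro, 17 of 18 cytosolic synthetases, all but Qars, and 2 of 16 mitochondrial ones were called higher than at 0 h, against 15.7% of all genes, with a cytosolic median of 1.67 and a mitochondrial median of 0.18. Iars was 2.55 ± 0.34 higher (5.88-fold, adjusted p = 1.18e-05), Nars 2.25 ± 0.36 (8.61e-05), Rars 2.08 ± 0.33 (8.89e-05), Gars, the glycine enzyme, 2.04 ± 0.33 (0.000104), Mars1 1.91 ± 0.26 (1.23e-05) and Tars 1.89 ± 0.23 (5.02e-06). At 24 h, 17 cytosolic synthetases, all but Hars, and 5 mitochondrial ones passed, against 19.4% of all genes, with a cytosolic median of 1.20 beside a median of all genes of 0.23. Wars, which interferon is known to induce in human cells, led at 24 h (1.81 ± 0.29, adjusted p = 0.000313). Both counts rest in part on the outlying 0 h array. Without it, 13 cytosolic and 1 mitochondrial calls were left at 8 h and 2 and 0 at 24 h, and without the other 0 h array there were 18 and 6 at 8 h and 18 and 8 at 24 h. At 24 h, 9 cytosolic and 1 mitochondrial calls were left without 24 h array 1. Within the arrays numbered 1 the cytosolic median was 2.24 at 8 h and 1.81 at 24 h, and within those numbered 2 it was 1.14 and 0.61.

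At 2 h in Tconv in vitro, 6 cytosolic and 2 mitochondrial synthetases passed, against 19.5% of all genes, led by Rars (1.40 ± 0.33, adjusted p = 0.00465), and at 72 h 2 and 1, against 6.65% of all genes. The cytosolic genes at 72 h were Qars (1.21 ± 0.35, adjusted p = 0.0334) and Wars (1.04 ± 0.29, 0.0305). Without the outlying array none passed at either time, and without its partner there were 12 cytosolic and 3 mitochondrial calls at 2 h and 17 and 5 at 72 h. Leaving out either 2 h array gave 1 and 0 calls at 2 h, and either 72 h array 0 and 0 at 72 h. With the array number as a block there were 7 cytosolic calls at 72 h, where the cytosolic median was 1.35 within the arrays numbered 1 and -0.03 within those numbered 2. Between 2 and 8 h, a step that does not use the 0 h arrays, 10 cytosolic synthetases rose, against 4.56% of all genes, led by Mars1 (2.05 ± 0.26, adjusted p = 5.65e-06), and 17 members did without the outlying array in the shared fit. Between 8 and 24 h, Tars fell by 0.93 ± 0.23 (0.0198) and Cars by 0.85 ± 0.21 (0.0183), against 0.909% of all genes called lower, and the mitochondrial serine enzyme Sars2 rose by 0.68 ± 0.20 (0.0485), against 3.63% called higher. None of these 3 passed without array 1 of the 8 h or of the 24 h group, and 8 members did without the outlying array.

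No synthetase was called lower than at 0 h in any of the 16 comparisons with 0 h, whereas of all genes at 2, 8, 24 and 72 h 1.42, 3.31, 0.0322 and 0% were called lower in Treg in vivo, 0.467, 6.54, 0.129 and 0.0241% in Tconv in vivo, 1.63, 1.09, 0.934 and 1.77% in Treg in vitro and 6.8, 3.22, 7.48 and 0.901% in Tconv in vitro. Each of the 18 cytosolic members was called higher in at least 1 of the 16, Tars in 10 and Rars in 9, as were 7 of the 16 mitochondrial members and 41.5% of all genes, a share close to that of the mitochondrial members. By group mean, 16 cytosolic members peaked at 8 h in Treg in vivo, Farsb at 2 h and Qars at 24 h. In Tconv in vivo 17 peaked at 8 h and 1, Qars, at 24 h. In Treg in vitro 2 peaked at 8 h, 12 at 24 h and 4 at 72 h, and in Tconv in vitro 15 peaked at 8 h and Qars, Sars and Wars at 24 h.

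Qars and Sars, the glutamine and serine enzymes, departed from the other cytosolic members. Qars read 10.07 and 9.60 in Treg in vivo at 0 h, 9.95 and 9.54 at 2 h, 10.49 and 10.03 at 8 h, 10.73 and 10.30 at 24 h and 10.22 and 9.97 at 72 h. In Tconv it read 10.14 and 9.45 at 0 h, 10.05 and 9.40 at 2 h, 10.86 and 10.34 at 8 h, 11.07 and 10.44 at 24 h and 10.33 and 9.84 at 72 h. In both cell types the arrays numbered 1 were above those numbered 2 at each time, and the 24 h arrays were the highest of their number. Across the 22 group means, each member was correlated with the mean of the other cytosolic members, values that share arrays and normalization and are given as a description. The coefficient was 0.44 for Qars and 0.65 for Sars, against 0.83 to 0.98 for the other 16 cytosolic members, the highest being that of Kars.

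Sars read 9.99 and 9.66 at 0 h, 9.79 and 9.62 at 2 h, 10.50 and 9.99 at 8 h, 10.27 and 9.96 at 24 h and 10.17 and 9.94 at 72 h in Treg in vivo. In Tconv in vivo it read 10.39 and 9.94 at 0 h, 10.35 and 9.76 at 2 h, 11.04 and 10.61 at 8 h, 10.60 and 10.13 at 24 h and 10.48 and 10.06 at 72 h. The 8 h arrays were the highest of their number, and array 1 was above array 2 at each time. Farsa, the phenylalanine enzyme's catalytic subunit, was the cytosolic member with the next smallest rise in Tconv in vivo at 8 h and did pass (1.11 ± 0.21, adjusted p = 0.000403). It read 8.12 and 8.08 at 0 h, 8.82 and 8.72 at 2 h, 8.94 and 8.75 at 8 h, 8.32 and 8.05 at 24 h and 7.99 and 8.11 at 72 h in Treg. In Tconv Farsa read 8.42 and 8.12 at 0 h, 9.15 and 8.72 at 2 h, 9.48 and 9.29 at 8 h, 8.51 and 8.31 at 24 h and 8.38 and 8.16 at 72 h. Both 2 h and both 8 h arrays were above the 0 h arrays in each cell type.

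Among mitochondrial enzymes, Yars2, which charges tyrosine, was called most often. In Treg in vivo Yars2 read 7.60 and 6.83 at 0 h, 8.53 and 8.15 at 2 h, 8.43 and 8.18 at 8 h, 7.63 and 7.35 at 24 h and 7.16 and 7.15 at 72 h. In Tconv in vivo it read 7.07 and 7.24 at 0 h, 8.40 and 8.02 at 2 h, 8.90 and 9.01 at 8 h, 6.82 and 7.30 at 24 h and 6.54 and 6.85 at 72 h. The 2 h and 8 h arrays were above the 0 h arrays in both cell types.

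Yars2 was 1.09 ± 0.31 higher than at 0 h at 8 h in Treg in vivo (adjusted p = 0.0249) and 1.80 ± 0.31 higher in Tconv in vivo (0.000155), and in vitro at 8 h 1.08 ± 0.31 in Treg (0.0401) and 1.76 ± 0.31 in Tconv (0.000265). It was called higher in 8 of the 16 comparisons with 0 h, and its correlation with the cytosolic mean over 22 groups was 0.93. Hars2 and Tars2 were called in 4 each, Sars2 in 3, and Rars2, Iars2 and Ears2 in 1 each. Aars2, Cars2, Fars2, Lars2, Mars2, Nars2, Pars2, Vars2 and Wars2 were called higher in none, and the correlations of the mitochondrial members other than Yars2 with the cytosolic mean were between -0.14 (Cars2) and 0.71 (Vars2). The 4 mitochondrial calls in Tconv in vivo at 8 h were Yars2, Rars2 (1.18 ± 0.28, adjusted p = 0.00307), Sars2 (1.10 ± 0.20, 0.000225) and Tars2 (0.54 ± 0.18, 0.0295).

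Rars2, the mitochondrial arginine enzyme, read 7.57 and 6.88 at 0 h, 7.97 and 7.41 at 2 h, 8.18 and 7.47 at 8 h, 7.81 and 7.33 at 24 h and 7.37 and 7.27 at 72 h in Treg in vivo. In Tconv Rars2 read 7.00 and 7.15 at 0 h, 7.01 and 7.07 at 2 h, 8.24 and 8.27 at 8 h, 7.23 and 7.19 at 24 h and 6.88 and 7.38 at 72 h. In Tconv the 8 h arrays stood well above both 0 h arrays and the 24 h arrays just above them, while in Treg each later group overlapped with 0 h. Sars2 read 7.14 and 7.06 at 0 h, 7.31 and 7.07 at 2 h, 7.61 and 7.73 at 8 h, 7.80 and 7.21 at 24 h and 7.37 and 7.08 at 72 h in Treg in vivo. In Tconv in vivo it read 7.37 and 6.84 at 0 h, 7.32 and 7.13 at 2 h, 8.27 and 8.14 at 8 h, 7.81 and 7.51 at 24 h and 7.10 and 7.15 at 72 h. In both cell types the 8 h and the 24 h arrays were above the 0 h arrays.

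**Figure D3:**
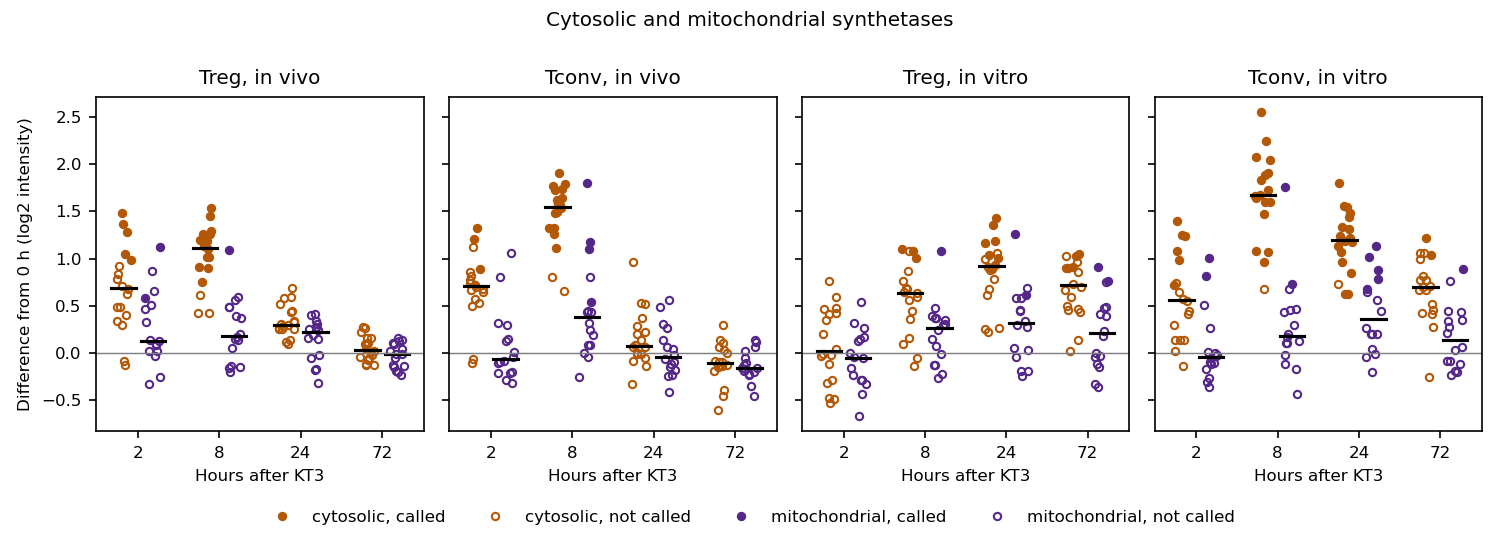
Log2 difference from 0 h of the cytosolic and the mitochondrial synthetases by time after KT3, for Treg in vivo, Tconv in vivo, Treg in vitro and Tconv in vitro, with filled points for called members, open points for the others and a bar at the median of each set. At 8 h in vivo the cytosolic medians are 1.12 in Treg and 1.55 in Tconv, and the mitochondrial medians 0.18 and 0.37. Most mitochondrial members were dimmer than the cytosolic ones, and the part of this in the difference was not tested.

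In mammals, several cytosolic synthetases are held in a multisynthetase complex with 3 scaffold proteins, and 7 of the members belong to it (Eprs, Iars, Kars, Lars, Mars1, Qars and Rars). Its members were set beside the other 11 cytosolic enzymes. At 8 h in vivo the median differences from 0 h were 1.19 for the complex and 1.10 for the others in Treg, and 1.62 and 1.49 in Tconv, with 6 of 7 and 9 of 11 called in Treg, against 6.36% of all genes, and 6 of 7 and 10 of 11 in Tconv, against 14.4%. At 24 h in Treg in vitro the medians were 1.04 and 0.87, with 5 of 7 and 3 of 11 called, against 5.01% of all genes, and these 8 calls became 1 or 2 on leaving out 3 of the 4 arrays, as given above. These differences between the sets were not tested.

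Treg and Tconv were then compared directly. Before KT3 in vivo no synthetase was called different between Treg and Tconv, against 2.58% of all genes called higher and 0.515% called lower in Treg. By limma, 1 cytosolic and 2 mitochondrial members had an unadjusted p under 0.05, all lower in Treg. In vitro at 0 h, Lars, the leucine enzyme, read 8.30 and 8.58 in Treg and 6.89 and 8.26 in Tconv (0.86 ± 0.28, adjusted p = 0.0457). Hars2 (0.78 ± 0.24, 0.0429) and Iars2 (0.93 ± 0.30, 0.0457) were likewise called higher in Treg, against 8.68% of all genes. No member passed without the outlying Tconv array or without Treg array 2, and 21 did without Tconv array 2.

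The measured response at 8 h was smaller in Treg than in Tconv for all 18 cytosolic synthetases, and none of these differences passed the test of the difference in response. In vivo the difference (Treg response minus Tconv response) was between -0.65 for Hars and -0.09 for Rars, with a median of -0.45 and SEs of 0.30 to 0.51, and no member had an unadjusted p under 0.05 in limma. In vitro it was between -1.49 for Nars and -0.47 for Cars, with a median of -1.15, an unadjusted p under 0.05 for 13 of 18 and a lowest adjusted p of 0.106, that of Farsb. Of all genes, 0.0966% were called higher and 0.137% lower in vivo, and 0.41% and 0.241% in vitro. All 18 differences of each setting share their 0 h arrays. In vitro at 8 h, the cytosolic median rise within the arrays numbered 1 was 0.79 in Treg and 2.24 in Tconv. Within those numbered 2 it was 0.45 and 1.14. The first set includes the outlying 0 h Tconv array. The in vitro result depends on 1 array: without 0 h Tconv array 2, 17 of the 34 members passed, without its partner, array 1, none did. Quantile normalization gave 5, and the array number as a block 1, Mars1 (-1.28 ± 0.29, adjusted p = 0.0237). At the other times no synthetase passed (without 0 h Tconv array 2, 13, 12 and 8 did in vitro at 2, 24 and 72 h), with 2 or fewer cytosolic members at an unadjusted p under 0.05 in limma at each. Of all genes, 0.0483, 0.0644 and 0.0161% passed in vivo at 2, 24 and 72 h, and 0.145, 0.491 and 1.79% in vitro.

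**Figure D4:**
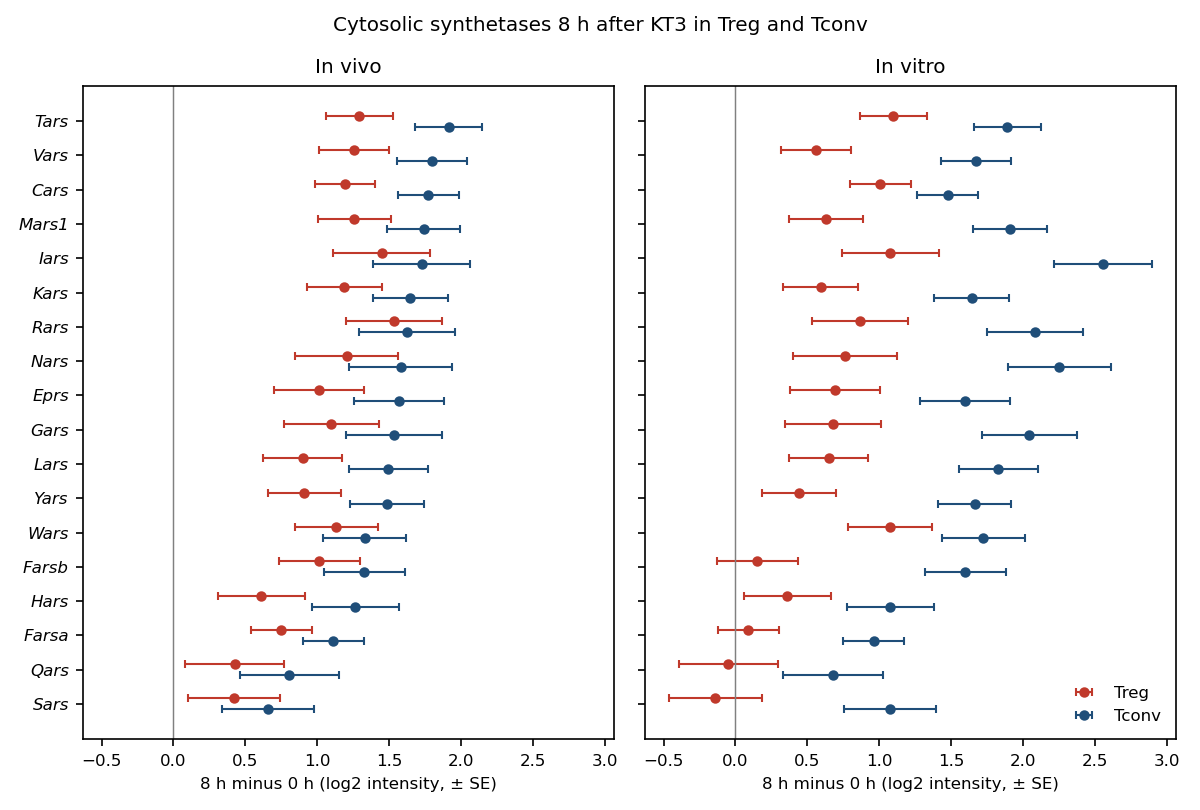
Log2 difference between 8 h and 0 h of each cytosolic synthetase in Treg and in Tconv, in vivo and in vitro, as points with bars of ± SE from the fit. The Treg values lie below the Tconv values for all 18 genes in both settings, by a median of 0.45 in vivo and 1.15 in vitro, and neither difference passed the test for any gene. The in vitro Tconv values use the outlying 0 h array. The in vitro median rises were 0.79 in Treg and 2.24 in Tconv within arrays numbered 1, and 0.45 and 1.14 within those numbered 2.

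The responses in vivo and in vitro were compared within each cell type. At 24 h in Tconv the response was lower in vivo for all 18 cytosolic synthetases, with a median difference of -1.03 (in vivo minus in vitro), and 13 had an unadjusted p under 0.05. Mars1 alone passed, against 0.443% of all genes called lower. The in vitro 0 h group holds the outlying array. Within the arrays numbered 1 the cytosolic median rise was 0.08 in vivo and 1.81 in vitro. Those numbered 2 gave 0.13 and 0.61. On the arrays numbered 2, Hars went from 7.98 at 0 h to 8.42 in vivo and from 8.35 to 8.55 in vitro. Qars went from 9.45 to 10.44 and from 9.88 to 10.47. Both rose more in vivo there, unlike the other cytosolic members. In vivo Mars1 read 8.79 and 8.47 at 24 h and 8.99 and 8.54 at 0 h, and in vitro 10.10 and 9.67 at 24 h and 8.12 and 8.69 at 0 h. Thus 1 of the 24 h arrays lay within the range of the 0 h arrays in vivo and 1 just below it, while both lay above it in vitro. The difference in response was -1.62 ± 0.36 (adjusted p = 0.0208). With the array number as a block, Iars, Vars and Wars passed as well. No member passed without array 1 of the in vivo 0 h, in vitro 0 h or in vitro 24 h group or array 2 of the in vivo 24 h group, and 19 did without array 2 of the in vitro 0 h group.

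At 2 h in Treg, Farsb alone passed, against 1.89% of all genes called higher. In vivo Farsb read 10.34 and 9.97 at 2 h and 9.18 and 9.03 at 0 h, and in vitro 8.77 and 8.38 at 2 h and 9.06 and 9.16 at 0 h. Its 2 h arrays were above the 0 h arrays in vivo and below them in vitro, a difference in response of 1.58 ± 0.40 (adjusted p = 0.0215). With the array number as a block, Vars passed as well (1.11 ± 0.30, adjusted p = 0.0292). The cytosolic median difference at 2 h in Treg was 0.69, positive for 15 of 18. No member passed without either 0 h array of either setting, without array 1 of the in vivo or array 2 of the in vitro 2 h group, and 4 did without the outlying Tconv array. In the remaining 6 comparisons of settings no synthetase passed (for Tconv, 8, 8 and 19 did at 2, 8 and 72 h without in vitro 0 h array 2), against 0.362, 0.0966 and 1.58% of all genes in Treg at 8, 24 and 72 h and 5.04, 0.491 and 0.0885% in Tconv at 2, 8 and 72 h, and by limma's unadjusted p under 0.05 between 0 and 9 cytosolic members stood out at each.

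Rat IgG at 24 h was the control for the injection, with 1 array per cell type, which the fit assumed to vary like the other groups. The Treg IgG array was labelled as double sorted and both Treg arrays at 24 h after KT3 as single sorted. All 18 cytosolic synthetases were lower on the Treg IgG array than on average at 0 h, Hars at 7.36 beside 8.13. The part of either in the differences below was not tested. Hars read 8.56 on average in Treg 24 h after KT3 and 7.36 on the Treg array after IgG, the largest difference among the synthetases (1.20 ± 0.37, adjusted p = 0.193). No synthetase passed between KT3 and IgG at 24 h, against 0.274% of all genes in Treg and 1.47% in Tconv. The cytosolic differences were all positive in Treg (0.27 to 1.20, median 0.61 beside 0.10 for all genes, with 4 cytosolic and 2 mitochondrial members at an unadjusted p under 0.05 in limma), and their median in Tconv was 0.03 (1 and 1). Between IgG at 24 h and 0 h no synthetase passed, with 0% of all genes called, and the cytosolic medians were -0.23 in Treg and 0.03 in Tconv (-0.09 after quantile normalization).

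Genes that work beside the synthetases were counted over lists assembled with earlier results of these data known. Of all genes, 6.36% were called higher at 8 h in Treg in vivo, 14.4% in Tconv in vivo, 4.52% in Treg in vitro and 15.7% in Tconv in vitro. The 3 scaffold genes of the multisynthetase complex were all called higher at 8 h in Treg in vivo, Tconv in vivo and Tconv in vitro, and none in Treg in vitro. In Tconv in vivo at 8 h Eef1e1 was 2.18 ± 0.36 higher (adjusted p = 9.67e-05), Aimp2 1.46 ± 0.23 (6.36e-05) and Aimp1 1.36 ± 0.28 (0.000926). Of 25 genes of tRNA export and modification, 10 were called higher at 8 h in Treg in vivo and 14 in Tconv in vivo, against those 6.36% and 14.4%, and 2 in Treg in vitro and 12 in Tconv in vitro. The median in Tconv in vivo was 0.82. Mettl1, which methylates guanine in transfer RNA, was 2.50 ± 0.24 higher in Tconv (1.17e-07), the pseudouridine synthase Pus7 2.35 ± 0.24 (2.31e-07), the adenine methyltransferase subunit Trmt61a 1.89 ± 0.38 (0.000597) and the tRNA exporter Xpot 1.70 ± 0.35 (0.000705). Of 7 elongation factors, 3 were called higher in Treg in vivo (6.36% of all genes) and 4 in Tconv in vivo (14.4%), and 0 in Treg in vitro and 4 in Tconv in vitro. Among those of Tconv in vivo were the mitochondrial factors Gfm1 (1.40 ± 0.27, 0.000416) and Tufm (1.40 ± 0.27, 0.000506). Of 12 tested genes of other steps of tRNA charging, 0 were called in Treg in vivo (6.36% of all genes) and 5 in Tconv in vivo (14.4%), and 0 in Treg in vitro and 1 in Tconv in vitro. The 5 included the alanine-editing Aarsd1 (1.15, 0.0031).

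A list of ATF4, its targets and amino acid supply held 21 tested genes, of which 10 were called higher at 8 h in Treg in vivo and 13 in Tconv in vivo, against 6.36% and 14.4% of all genes, and 1 was called lower in Tconv in vivo, against 6.54%. In vitro 2 were called higher in Treg and 9 in Tconv, against 4.52% and 15.7%. In Tconv, Shmt2, the mitochondrial serine hydroxymethyltransferase, was 2.65 ± 0.30 higher (adjusted p = 9.68e-07), Psat1 of serine synthesis 2.30 ± 0.31 (8.23e-06), asparagine synthetase Asns 2.08 ± 0.52 (0.00448), and the amino acid transporter Slc7a5 1.77 ± 0.32 (0.000247). The following were singled out after their values were seen: Atf4 itself was 1.02 ± 0.24 higher (0.00326). Trib3, a target of ATF4 in stress, was lower (-0.76 ± 0.21, adjusted p = 0.00893), and the stress genes Ddit3 and Chac1, at -0.04 and -0.29, did not pass. At 24 and 72 h in vivo, 1 gene of these 5 lists was called higher, in Tconv at 24 h. Of all genes, 0.451 and 0.0241% were called higher at these times in Treg, and 2.27 and 0.266% in Tconv, so few genes of any kind were called.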

How the data were processed

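RNA of 42 sorted populations was measured on Affymetrix ST1.0 gene arrays. The authors deposited linear intensity values for 24922 transcript clusters, made with the RMA algorithm per the series design text, with Affymetrix Power Tools named in the submitters' processing notes (versions not given in the sources used here). Clusters with 1 gene symbol in the platform annotation were kept, the cluster of highest mean stood for each of 19752 genes, and genes above the array median on fewer than 2 arrays were left out (7327), leaving 12425. Values were analysed as log2 in 1 limma 3.58.1 fit (R 4.3.3) of 22 group means with no covariate (20 residual degrees of freedom), two-sided, with Benjamini-Hochberg adjustment per comparison and a threshold of 0.05. The code of the fit was run on simulated independent values. These held no outlying array and no shared deviation of same-numbered arrays, so the run does not bear on either. Precision is limited by the number of arrays (array medians 87.6 to 116.4 in intensity).

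The members and all gene lists were chosen with earlier results of these data known. Genes were named by rule: up to 6 cytosolic and 3 mitochondrial called members per comparison with the largest change, array values for the members with the largest and smallest changes in Tconv in vivo at 8 h, and up to 4 called genes of each list. Likeness was the Pearson correlation over group means. Promoter windows come from RefSeq. Alternatives covered normalization, filters, an added 16, cluster choice, array weights, the arrays in the fit, a replicate block, single or double sort and leaving out each array.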

Additional observations from a re-analysis of the deposited data

Results flagged for a closer look

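The response of Mars1, the methionine enzyme, in Tconv at 24 h differed between the settings by the test of the difference itself, in vivo minus in vitro being -1.62 ± 0.36 on the log2 scale (adjusted p = 0.0208). The adjusted p ranged between 0.000583 and 0.975 over the alternatives, and the call was lost after quantile normalization (0.0945), with array weights (0.975), without the 3 in vitro arrays of narrowest range (0.144) and on leaving out 4 of the arrays in turn.

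The response of Farsb, a subunit of the phenylalanine enzyme, in Treg at 2 h likewise differed between the settings, by 1.58 ± 0.40 (adjusted p = 0.0215). The adjusted p ranged between 0.000385 and 0.149, and the call was lost after median centring (0.0725) and on leaving out 6 of the arrays in turn. In each of these comparisons mouse age, the culture and, in part, sex go with the setting and cannot be told apart from it. With 2 arrays a group, no array could be tested as an outlier of its group.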

How the results depend on the processing

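Of 169 calls of single synthetases, each with 1 direction, none changed sign under any alternative run; 129 remained called after quantile normalization, 154 after median centring, 154 with no filter on dim genes, 169 with a stricter filter (a gene had to exceed the median of its array on 10 arrays or more), 169 after adding 16 before the logarithm, 169 with the mean of all clusters of a gene, 110 with array weights and 123 of 167 in a fit of only the arrays of that setting. With single or double sort as a term, an alternative chosen after seeing the data and possible for 46 in vivo calls, all 46 remained. Leaving out each array in turn kept 518 of 800. The cause of the lost calls was not tested; fits without an array, or of 1 setting, hold fewer arrays. The following counts of called members moved by more than 1.5 times, with the count of the analysis above in brackets.

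With the stricter filter there were 5 (2) cytosolic calls in Tconv in vitro at 72 h. Adding 16 gave 1 (0) mitochondrial call in Tconv in vivo at 2 h and 1 (0) between 2 and 8 h in Treg in vivo. With no filter there were 0 (1) mitochondrial calls at 8 h and 1 (2) at 24 h in Treg in vitro, and 1 (3) between Treg and Tconv in vitro at 0 h. Median centring gave 1 (2) and 0 (1) mitochondrial calls in Treg in vivo at 2 and 8 h, 7 (4) in Tconv in vivo at 8 h, 0 (1) in Treg in vitro at 8 h, 5 (2) cytosolic calls in Tconv in vitro at 72 h, 2 (4) between 8 and 24 h in Treg in vivo, 1 (3) in Tconv in vitro, 1 (3) between 2 and 8 h in Treg in vitro and 0 (1) for Treg in vivo minus in vitro at 2 h.

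Quantile normalization gave 1 (2) and 0 (1) mitochondrial calls in Treg in vivo at 2 and 8 h, 1 (0) in Tconv in vivo at 2 h and 4 (2), 5 (2), 8 (5) and 3 (1) in Tconv in vitro at 2, 8, 24 and 72 h. Cytosolic calls numbered 5 (2) in Tconv in vitro at 72 h, and 1 (0), 1 (3), 1 (8) and 2 (4) in Treg in vitro at 2, 8, 24 and 72 h, with 0 (1), 1 (2) and 1 (2) mitochondrial calls at 8, 24 and 72 h. Steps gave 4 (9) from 2 to 8 h in Tconv in vivo, 1 (0) in Treg in vivo and 1 (3) in Treg in vitro, and 7 (4) from 8 to 24 h in Treg in vivo. Differences in response gave 5 (0) for Treg minus Tconv in vitro at 8 h, 3 (0) for Tconv and 2 (1) for Treg in vivo minus in vitro at 2 h. The counts at 2 h in vitro hold 1 cytosolic call lower than 0 h in each cell type.

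Array weights gave 11 (5) cytosolic and 5 (2) mitochondrial calls in Treg in vivo at 2 h, 3 (1) mitochondrial at 8 h, 8 (3) cytosolic and 1 (0) mitochondrial in Tconv in vivo at 2 h and 8 (4) mitochondrial at 8 h. In Tconv in vitro they gave 0 at each time (6, 17, 17 and 2 cytosolic, 2, 2, 5 and 1 mitochondrial), and in Treg in vitro 0 (1) and 1 (2) mitochondrial at 8 and 24 h. Steps gave 2 (0) and 9 (4) in Treg in vivo, 1 (3) from 8 to 24 h in Tconv in vitro and 10 (3) from 2 to 8 h in Treg in vitro. Treg minus Tconv in vitro at 0 h gave 0 (3), in vivo minus in vitro 0 (1) for Tconv at 24 h and 2 (1) and 1 (0) for Treg at 2 and 72 h.

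Fits of only the arrays of that setting gave 10 (5) cytosolic calls in Treg in vivo at 2 h and 2 (1) mitochondrial at 8 h, 10 (3) cytosolic and 1 (0) mitochondrial in Tconv in vivo at 2 h and 7 (4) mitochondrial at 8 h. In Treg in vitro there were 0 (1) mitochondrial calls at 8 h, 2 (8) and 0 (2) at 24 h and 1 (4) cytosolic at 72 h, and in Tconv in vitro 0 (6) and 0 (2) at 2 h, 1 (2) mitochondrial at 8 h, 10 (17) and 2 (5) at 24 h and 0 (2) and 0 (1) at 72 h. Steps gave 14 (9) from 2 to 8 h in Tconv in vivo, 1 (0) in Treg in vivo and 1 (3) in Treg in vitro, and from 8 to 24 h 11 (4) in Treg in vivo and 0 (3) in Tconv in vitro. Treg minus Tconv in vitro at 0 h gave 0 (3).

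Without the 3 in vitro arrays of narrowest range there were 11 (5) and 5 (2) calls in Treg in vivo at 2 h, 2 (1) mitochondrial at 8 h, 10 (3) and 2 (0) in Tconv in vivo at 2 h and 7 (4) mitochondrial at 8 h. In Tconv in vitro there were 0 (6), 11 (17), 2 (17) and 0 (2) cytosolic and 0 (2), 1 (2), 0 (5) and 0 (1) mitochondrial calls at 2, 8, 24 and 72 h, and in Treg in vitro 0 (1) and 0 (2) mitochondrial at 8 and 24 h. Steps gave 20 (9) from 2 to 8 h in Tconv in vivo, 2 (0) in Treg in vivo and 8 (3) in Treg in vitro, and 13 (4) from 8 to 24 h in Treg in vivo. Treg minus Tconv in vitro at 0 h gave 0 (3), in vivo minus in vitro 0 (1) for Tconv at 24 h and 3 (1) for Treg at 2 h, and KT3 minus IgG in Treg 1 (0).

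Same-numbered arrays deviated from their group means together in most but not all pairs of groups: the correlation was above 0.1 in 32 of 45 pairs in vivo (median 0.305) and 28 of 45 in vitro (median 0.222). The labels do not say that a number marks a shared mouse, and in vitro it goes with sex and age. With the number as a replicate block all 169 calls remained, and counts were 5 (3) and 1 (0) cytosolic in Tconv in vivo at 2 and 24 h, 2 (1) mitochondrial in Treg in vivo at 8 h, 9 (4) cytosolic in Treg and 7 (2) in Tconv in vitro at 72 h. Under the block, steps gave 1 (0) and 8 (4) in Treg in vivo, and differences in response 1 (0) for Treg minus Tconv in vitro at 8 h, 1 (0), 1 (0) and 4 (1) for Tconv in vivo minus in vitro at 2, 8 and 24 h and 2 (1) for Treg at 2 h.

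Leaving out each array in turn gave 1 to 11 and 4 to 15 cytosolic and 0 to 4 and 0 to 2 mitochondrial calls in Treg in vivo at 2 and 8 h, and 1 to 10 and 14 to 16 cytosolic and 0 to 1 and 3 to 7 mitochondrial in Tconv. In Treg in vitro at 2, 8, 24 and 72 h it gave 0 to 1, 0 to 8, 1 to 14 and 0 to 11 cytosolic and 0, 0 to 1, 0 to 3 and 0 to 3 mitochondrial calls, and in Tconv 0 to 12, 13 to 18, 2 to 18 and 0 to 17 cytosolic and 0 to 3, 1 to 6, 0 to 8 and 0 to 5 mitochondrial. Steps from 2 to 8 h gave 0 to 2 in Treg in vivo, 0 to 16 in Tconv in vivo, 0 to 7 in Treg in vitro and 7 to 17 in Tconv in vitro, and from 8 to 24 h 0 to 12, 15 to 22, 0 and 0 to 8. Treg minus Tconv in vitro gave 0 to 21 at 0 h and 0 to 13, 0 to 17, 0 to 12 and 0 to 8 for the responses at 2, 8, 24 and 72 h, in vivo minus in vitro 0 to 4, 0, 0 to 1 and 0 to 1 for Treg and 0 to 8, 0 to 8, 0 to 19 and 0 to 19 for Tconv, and KT3 minus IgG in Treg 0 to 1. The highest counts for Tconv in vitro came without its 0 h array 2, which leaves the outlying array as the baseline.

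The correlation of Cars2 with the cytosolic mean was 0.167 after median centring (-0.136 before), and that of Fars2 -0.169 after quantile normalization (0.07 before). Of all genes called in Tconv in vivo at 8 h, 68.8% were higher, against 54.0% with quantile-normalized and 81.8% with median-centred values, and in Tconv in vitro at 24 h 72.1%, 52.3% and 86.3%. The corresponding shares in Treg were 65.8%, 52.4% and 75.0% in vivo at 8 h and 84.3%, 49.5% and 94.5% in vitro at 24 h. With median centring, the all-gene median in Tconv stood at 0.10 in vivo at 8 h (-0.06) and at 0.40 in vitro at 24 h (0.23). Groups of 2 arrays limit what can be called. All members passed the dim filter, though most mitochondrial ones were dimmer than the cytosolic ones.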
